A study of Homo sapiens with 12 samples.

Results

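The SLC25 family was followed through an RNA immunoprecipitation experiment on MiaPaCa-2 cells, an established pancreatic ductal adenocarcinoma line. Members were all protein-coding genes whose symbol starts with SLC25A. RefSeq lists 48 of them, and 44 had a transcript cluster annotated with their symbol alone, out of 33458 genes tested. SLC25A3 and SLC25A15 lie in clusters that carry several symbols, and SLC25A6 had no cluster with its symbol. Members other than the 44 were not analysed here. Where a gene had several clusters (3 members), the cluster that was brightest on average over the 12 arrays was taken.

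Cells of this 1 line were given DMSO as vehicle, or were treated for 16 h with olaparib at 10 µM, which inhibits PARP enzymes, or with gemcitabine at 1 µM, which blocks DNA synthesis as a nucleoside analogue. The time with DMSO is not stated in the labels. Cytoplasmic lysate of each treatment went through immunoprecipitation with an antibody to HuR (HuR-IP) or with control IgG (IgG-IP), and the recovered RNA was hybridised to Clariom D arrays. This gave 6 groups of 2 arrays, numbered 1 and 2. The titles call each group's arrays biological replicates, but whether they were grown and lysed separately is not stated, so the p-values measure the spread between these samples, which may be technical. All values are log2 signals as deposited, and a difference of log2 signals between HuR-IP and IgG-IP is written as a log2 fold change. Because a fixed amount of RNA was labelled for each array, the signals compare the make-up of the recovered RNA and not its amount, and fewer cells or less RNA per cell cannot be told apart.

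Mitochondrial carriers are a family of small membrane proteins, most of them in the inner mitochondrial membrane, that exchange nucleotides, phosphate, carboxylates, amino acids, cofactors and metals between cytosol and matrix. They are encoded in the nucleus and translated in the cytosol, so their mRNAs pass through the cytoplasmic fraction. HuR, encoded by ELAVL1, is an RNA-binding protein that prefers U-rich and AU-rich stretches and is known for stabilising mRNAs in the cytoplasm.

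The arrays had median signals of 3.73 to 3.95, antigenomic background probe sets had medians of 2.88 to 3.01, and 23 members had a mean signal above 6. Arrays correlated at 0.88 to 0.98. On the first principal component (63.4% of the variance) IgG-IP arrays lay between -80.3 and -72.1 and 4 of the HuR-IP arrays between 107 and 140, whereas the arrays numbered 2 in the DMSO and gemcitabine HuR-IP groups lay in between, at -27.6 and -20.8. These are called the 2 intermediate arrays here, and results that rest on them are given with and without them. This choice was made after seeing the data, and it picked the HuR-IP arrays nearest to IgG-IP on this component. Leaving them out therefore selects on the difference being tested. Larger estimates and more calls without them cannot count as separate support. Of the epithelial markers, KRT18 ranged from 11.3 to 16.1 and KRT8 from 9.10 to 11.6, while EPCAM stayed at 2.81 to 3.68, near the background probes. The summed signal of the 7 epithelial markers was 11.9 to 13.9 on HuR-IP and 14.6 to 16.2 on IgG-IP arrays (log2), with KRT18 the brightest. These markers did not move together. On HuR-IP and IgG-IP arrays KRT18 read 11.3 to 13.7 and 14.5 to 16.1, KRT8 9.10 to 10.6 and 9.54 to 11.6, and KRT19 3.92 to 5.64 and 5.16 to 7.87. In the same order SOX9 read 5.35 to 11.2 and 4.63 to 5.55, MUC1 4.43 to 8.46 and 5.53 to 6.17, and KRT7 7.01 to 7.91 and 6.82 to 7.68. The summed signal of 12 markers of other cell types was 9.60 to 10.6 on HuR-IP and 9.17 to 10.9 on IgG-IP arrays, with COL1A1 the brightest and PRSS1 and CPA1 near the background probes, and 0 of the 12 passed limma's test at an adjusted p under 0.05. The nuclear RNA MALAT1 read 7.96 to 12.2 on HuR-IP and 9.52 to 13.4 on IgG-IP arrays, above the background probes. The part of these markers and of MALAT1 in the results below was not tested.

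The family did not move as 1 block between HuR-IP and IgG-IP. Averaged over the 3 treatments, 5 of 44 members (11.4%) were lower in HuR-IP and 0 were higher at an adjusted p under 0.05, which is the call used throughout (limma, Benjamini-Hochberg over all genes). Of all genes, 7.51% were lower and 2.39% higher. Among the 23 members with a mean signal above 6, 4 were lower (17.4%) and 0 higher. Of the 7114 protein-coding genes of that brightness, 18.5% were lower and 7.53% higher. The 5 were SLC25A11 and SLC25A10, which move dicarboxylates, SLC25A26, which brings S-adenosylmethionine into the matrix, SLC25A13, an aspartate/glutamate exchanger, and SLC25A14, a relative of the uncoupling proteins. At an unadjusted p under 0.05 there were 10 members higher and 11 lower, against 8.02% and 16.0% of all genes. The median log2 fold change of the members was -0.06 (-0.07 over all genes), with a range from -2.82 for SLC25A5 to 3.69 for SLC25A32. As deposited, 21 members had a positive and 23 a negative estimate. With cyclic loess the split was 24 and 20 and the median 0.07, and with arrays centred on brighter genes it was 31 and 13 and the median 0.38, where all genes had medians of 0.01 and 0.38.

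**Figure D1:**
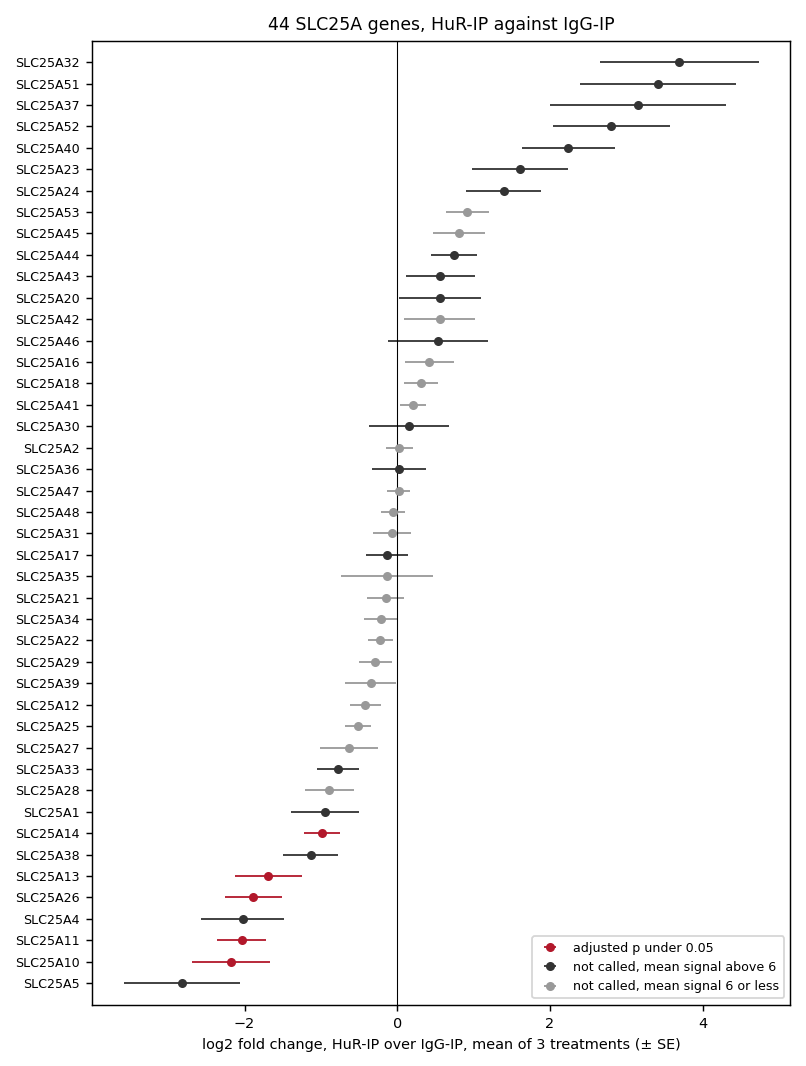
Log2 fold change of HuR-IP over IgG-IP, averaged over DMSO, olaparib and gemcitabine (x axis), for the 44 measured SLC25A genes in order of its size; points are limma estimates and bars their standard errors. The 5 called members are on the lower side, between -2.18 and -0.98, and the 5 largest positive differences, from 2.24 to 3.69, have adjusted p-values from 0.0547 to 0.134.

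Counts of higher members depended on the model. With the replicate number as a block, 7 members were higher (15.9%) and 8 lower (18.2%), where 6.62% and 11.6% of all genes were called. The 7 were SLC25A32, SLC25A51, SLC25A52, SLC25A37, SLC25A40, SLC25A24 and SLC25A23, and the lower calls gained SLC25A4, SLC25A5 and SLC25A38. Without the 2 intermediate arrays, 9 members were higher and 4 lower (6.75% and 11.0% of all genes), and of the 5 lower calls SLC25A11 and SLC25A26 remained. The 9 were SLC25A24, SLC25A32, SLC25A37, SLC25A40, SLC25A42, SLC25A45, SLC25A51, SLC25A52 and SLC25A53. Other scalings and priors moved the higher count most. Cyclic loess gave 8 higher and 4 lower (5.46% and 4.96% of all genes), centring on brighter genes 9 and 6 (6.84% and 5.16%), a trended and robust prior 5 and 6 (2.68% and 7.08%), and a test of genes with a mean signal above 6 alone 5 and 6 (11.4% and 25.7% of those). Leaving out 1 array gave 0 higher members, except 6 without the DMSO HuR-IP array 2 and 5 without the gemcitabine HuR-IP array 2, and 1 (without the DMSO IgG-IP array 1 or the olaparib HuR-IP array 2) to 8 (without the gemcitabine IgG-IP array 2) lower members. The shares of all genes called in the fits without 1 array are not given here, so the counts of members in those fits cannot be set against them. Among the 23 members with a mean signal above 6, the blocked model called 30.4% higher and 30.4% lower. Of the protein-coding genes of such brightness, it called 20.6% higher and 30.2% lower.

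For 2 members, SLC25A40 and SLC25A52, the lower HuR-IP value exceeded the higher IgG-IP value in each of the 3 treatments. The reverse held for 6, namely SLC25A10, SLC25A11, SLC25A13, SLC25A14, SLC25A26 and SLC25A28. Among all genes, 3.22% and 8.15% separated in this way. Of the 23 members with a mean signal above 6, 2 and 4 did, against 8.46% and 17.2% of protein-coding genes of that brightness. Compared with the IgG-IP array of the same number, HuR-IP was higher in 6 of 6 comparisons for 9 members. It was lower in 6 of 6 for 6 members. Of all genes, 7.68% and 12% did so. Among the 23 brighter members the counts were 7 and 4, against 19.5% and 23.2% of those brighter protein-coding genes.

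**Figure D2:**
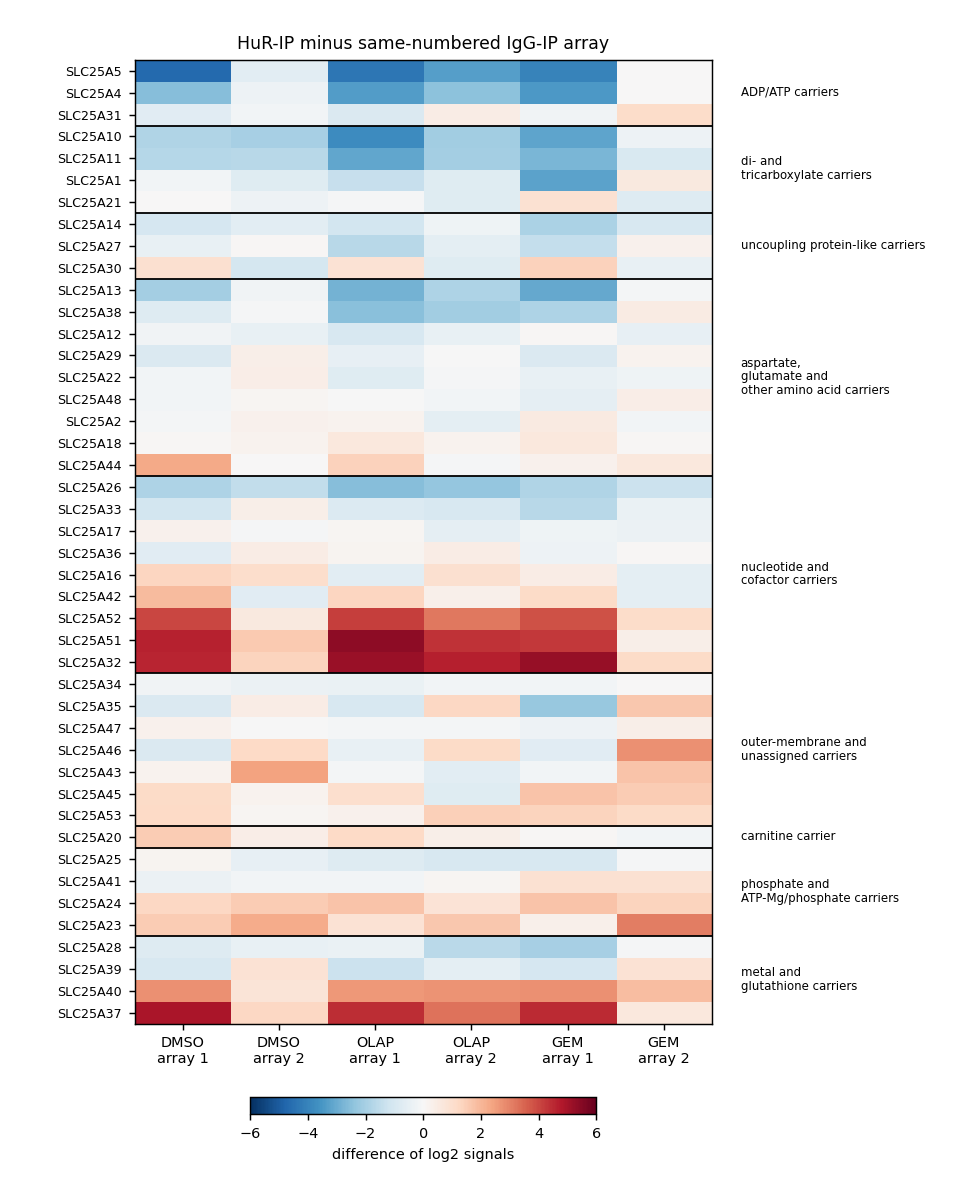
Difference of log2 signals between each HuR-IP array and the IgG-IP array of the same treatment and number (columns) for the 44 members (rows), grouped by role; red is higher and blue lower in HuR-IP. The strongest colours stand in the columns of both olaparib arrays and of the arrays numbered 1 of DMSO and gemcitabine; the SD over members was 2.15 and 1.71 in the olaparib columns 1 and 2, 1.92 and 2.12 in the columns numbered 1 of DMSO and gemcitabine, and 0.92 and 0.94 in those of the 2 intermediate arrays.

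The ADP/ATP carriers swap matrix ATP for cytosolic ADP. Of the 4 genes 3 were measured, 0 were called, and their median log2 fold change was -2.02. It became -1.25 with cyclic loess and -1.575 with arrays centred on brighter genes. SLC25A5 (ANT2), the form of proliferating cells, was bright on all arrays. On IgG-IP arrays it read 14.73 and 14.66 with DMSO, 15.07 and 14.48 with olaparib, and 15.42 and 14.87 with gemcitabine (arrays 1 and 2). On HuR-IP arrays it read 10.09 and 14.04, 10.73 and 11.16, and 11.43 and 14.89 in the same order. The HuR-IP signal of SLC25A5 was therefore low on 4 arrays and near IgG-IP on the 2 intermediate arrays, and the gemcitabine groups overlapped. Its log2 fold change was -2.82 (SE 0.76, limma's adjusted p = 0.0531), with an adjusted p of 0.0206 under the block, and without the 2 intermediate arrays it was -4.05.

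SLC25A4 (ANT1), the form of heart and skeletal muscle, had -2.02 (SE 0.55, adjusted p = 0.0531 with limma and 0.0210 under the block). Its IgG-IP signals were 11.67 and 9.81, 12.18 and 10.28, and 12.69 and 10.77, and its HuR-IP signals 9.10 and 9.50, 8.83 and 7.81, and 9.24 and 10.79 (DMSO, olaparib, gemcitabine). The gemcitabine groups of SLC25A4 overlapped and the others did not. SLC25A31 (ANT4), known from the testis, was dim on all arrays, at 3.44 to 4.54, with an estimate of -0.07 (SE 0.25, limma's adjusted p = 0.910) which turned to 0.38 with each array centred on its brighter genes.

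Carriers of di- and tricarboxylates feed malate, oxoglutarate and citrate between matrix and cytosol, and SLC25A11, the oxoglutarate/malate exchanger of the malate-aspartate shuttle, was the 1 call that passed whichever array was left out. On IgG-IP arrays its signals were 11.76 and 11.85 with DMSO, 11.59 and 12.12 with olaparib and 11.87 and 11.13 with gemcitabine. On HuR-IP arrays they were 10.04 and 10.18, 8.48 and 10.09, and 9.11 and 10.20. Each of the 6 HuR-IP values lay below each of the 6 IgG-IP values. This pattern held for 3 of 44 members (6.82%), 5.36% of all genes and 11.5% of protein-coding genes with a mean signal above 6. The log2 fold change was -2.04 (SE 0.32, limma's adjusted p = 0.00608), a 4.10-fold lower signal, and the adjusted p was 0.00399 to 0.0234 over the 12 fits that left out 1 array.

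SLC25A10, the dicarboxylate carrier that exchanges malate or succinate for phosphate, had the largest drop among the called members, -2.18 (SE 0.51, limma's adjusted p = 0.0335). Its signals on IgG-IP arrays were 10.15 and 8.90, 10.00 and 8.24, and 10.12 and 7.73 for DMSO, olaparib and gemcitabine, and on HuR-IP arrays 8.35 and 6.92, 6.23 and 6.17, and 6.96 and 7.45. The groups of SLC25A10 did not overlap in any treatment, but on IgG-IP the array numbered 1 read above the array numbered 2 in each. SLC25A10 lost the call without any 1 of 7 arrays. These were the IgG-IP array 1 of each treatment, the DMSO HuR-IP array 2, the gemcitabine HuR-IP array 1 and both olaparib HuR-IP arrays. SLC25A10 also lost the call without the 2 intermediate arrays. The citrate carrier SLC25A1 and the oxodicarboxylate carrier SLC25A21, named after their values were seen, had -0.94 (SE 0.45, limma's adjusted p = 0.243) and -0.15 (SE 0.25, adjusted p = 0.774). All 4 genes of this role had a negative estimate, with a median of -1.49. With arrays centred on brighter genes the median was -1.04 and SLC25A21 had 0.30.

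**Figure D3:**
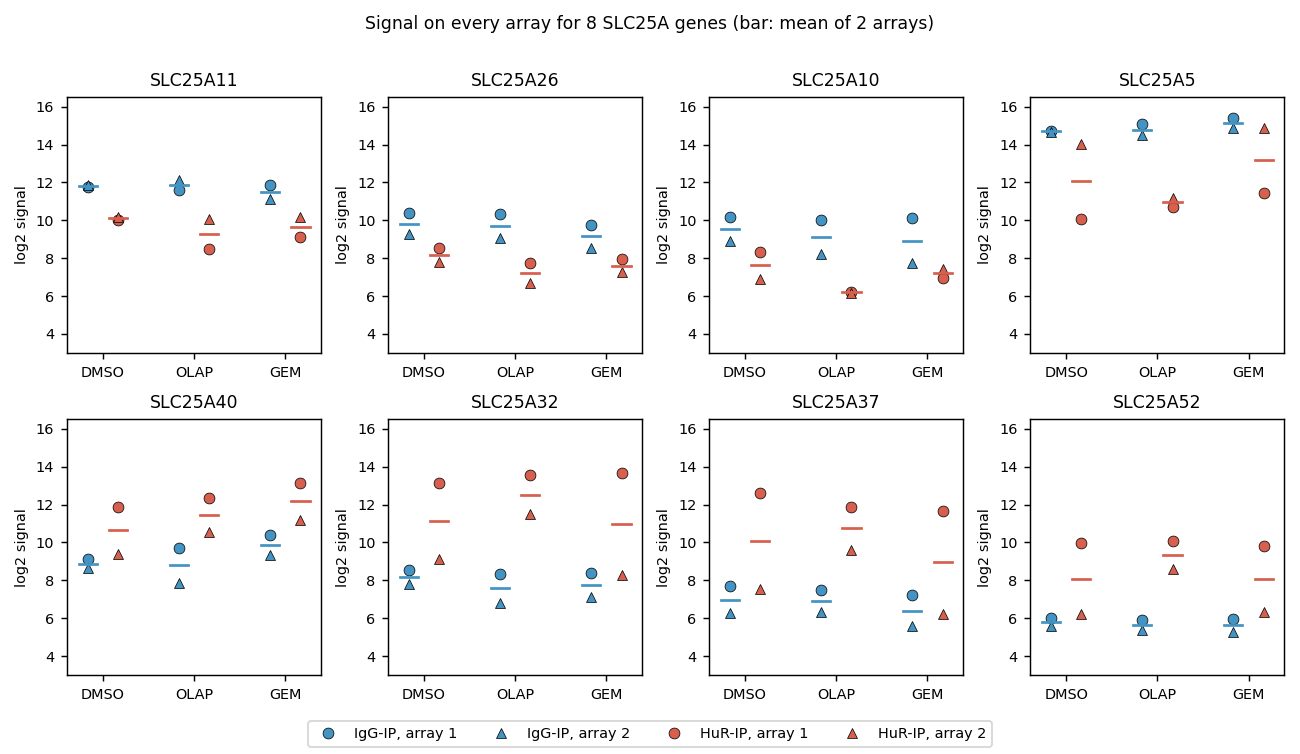
Log2 signal (y axis) on every array of 8 SLC25A genes by treatment; blue is IgG-IP and red HuR-IP, circles are arrays numbered 1, triangles arrays numbered 2, and bars the mean of the 2 arrays. In the upper row HuR-IP lies below IgG-IP for SLC25A11, SLC25A26 and SLC25A10 in each treatment; in the lower row SLC25A32, SLC25A37 and SLC25A52 read high on 4 HuR-IP arrays and lower on the 2 intermediate arrays.

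Amino acid carriers were mostly close to zero. Of 9 measured (10 listed), 1 was lower and 0 were higher, with a median of -0.22 that became 0.23 with arrays centred on brighter genes. SLC25A13 (citrin), the calcium-regulated aspartate/glutamate exchanger of many epithelial tissues, read 8.39 and 7.14, 8.34 and 6.89, and 8.43 and 6.34 on IgG-IP (DMSO, olaparib, gemcitabine) and 6.33 and 6.94, 5.51 and 5.03, and 5.38 and 6.22 on HuR-IP. Its groups did not overlap in any treatment, although by only 0.20 with DMSO and 0.12 with gemcitabine. The log2 fold change of SLC25A13 was -1.69 (SE 0.45, limma's adjusted p = 0.0494), and of the 12 fits without 1 array it passed only in those without the gemcitabine IgG-IP array 2, the gemcitabine HuR-IP array 2 or the olaparib IgG-IP array 2 (adjusted p 0.0206 to 0.127 over the 12). Without the 2 intermediate arrays SLC25A13 had -1.93 and lost the call.

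SLC25A12 (aralar), the other aspartate/glutamate exchanger, was dim, at 3.54 to 5.05, and had -0.42 (SE 0.20, limma's adjusted p = 0.256), or 0.03 with that centring. SLC25A38, a glycine carrier needed for haem synthesis, had its largest estimate with olaparib. Its olaparib signals were 8.24 and 7.68 on IgG-IP and 5.74 and 5.59 on HuR-IP, without overlap. With DMSO it read 8.47 and 7.76 against 7.70 and 7.67, where HuR-IP was also below without overlap but close to the lower IgG-IP value, and with gemcitabine 8.69 and 6.43 against 6.85 and 6.93, where the groups overlapped. Averaged over treatments SLC25A38 had -1.13 (SE 0.36, limma's adjusted p = 0.0913, and 0.0340 with the block), and it had -2.30 with olaparib (SE 0.63, adjusted p = 0.0955, and 0.0313 with the block). SLC25A44, a carrier of branched-chain amino acids, was bright at 10.84 to 13.11 and had 0.74 (SE 0.31, limma's adjusted p = 0.181).

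Nucleotide and cofactor carriers ranged from -1.88 to 3.69 over 9 measured genes, with 1 called lower and 0 higher. SLC25A26, the S-adenosylmethionine carrier, supplies methyl groups for mitochondrial RNA, protein and cofactor modification. It read 10.36 and 9.29, 10.32 and 9.05, and 9.78 and 8.55 on IgG-IP (DMSO, olaparib, gemcitabine). On HuR-IP it read 8.53 and 7.82, 7.76 and 6.71, and 7.96 and 7.26. Here, too, all 6 HuR-IP values were below all 6 IgG-IP values, by 0.02 at the nearest.

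The log2 fold change of SLC25A26 was -1.88 (SE 0.37, limma's adjusted p = 0.0166, and 0.000143 with the block), and under the block it also passed in DMSO (adjusted p = 0.0228), olaparib (0.00174) and gemcitabine (0.0199). It lost the call without the DMSO IgG-IP array 1 or without the olaparib HuR-IP array 2 (highest adjusted p 0.0539). SLC25A26 has 7 clusters on the array, 6 of them dimmer, and limma on the average of all of them gave -0.43 (adjusted p = 0.114).

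SLC25A32, which carries folate and has been described as an FAD carrier, had the largest positive estimate of the family. Its IgG-IP signals were 8.57 and 7.82 with DMSO, 8.36 and 6.79 with olaparib, and 8.40 and 7.12 with gemcitabine. Its HuR-IP signals were 13.15 and 9.14, 13.54 and 11.48, and 13.64 and 8.26. The gemcitabine groups overlapped, since the HuR-IP array numbered 2 read 8.26 against 8.40 on the IgG-IP array numbered 1, while HuR-IP was higher in 6 of 6 same-numbered comparisons, by 1.15 to 5.24. The log2 fold change of SLC25A32 was 3.69 (SE 1.04, limma's adjusted p = 0.0615), a 12.9-fold higher signal that missed the threshold. It was called by limma with the block (adjusted p = 0.00359) and with cyclic loess scaling (4.44, adjusted p = 0.0326). Without the 2 intermediate arrays the estimate was 5.26.

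SLC25A51, the mitochondrial NAD carrier, and its near-identical copy SLC25A52 followed the same course. Such copies can share probes, so the 2 rows are not independent. SLC25A51 read 7.44 and 5.96, 6.76 and 6.25, and 7.65 and 6.58 on IgG-IP and 12.08 and 7.51, 12.12 and 10.56, and 11.92 and 6.94 on HuR-IP (DMSO, olaparib, gemcitabine), with overlap in gemcitabine alone. SLC25A52 read 5.99 and 5.61, 5.90 and 5.40, and 5.98 and 5.25 on IgG-IP and 9.97 and 6.21, 10.06 and 8.59, and 9.80 and 6.34 on HuR-IP.

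SLC25A52 was the 1 member whose 6 HuR-IP values all exceeded all 6 IgG-IP values. This held for 1.74% of all genes and 5.34% of protein-coding genes with a mean signal above 6. The estimates were 3.41 for SLC25A51 (SE 1.02, limma's adjusted p = 0.0745, and 0.00668 with the block) and 2.80 for SLC25A52 (SE 0.77, adjusted p = 0.0562, and 0.00607 with the block). Without the 2 intermediate arrays they were 5.00 and 4.01. The pyrimidine nucleotide carriers SLC25A33 and SLC25A36, named after their values were seen, had -0.77 (SE 0.27, limma's adjusted p = 0.123) and 0.02 (SE 0.35, adjusted p = 0.981). SLC25A36 was bright, at 10.03 to 11.94, and overlapped between the antibodies in each treatment.

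Metal and glutathione carriers split by gene. SLC25A40, one of the glutathione carriers, separated in every treatment. Its IgG-IP signals were 9.12 and 8.65, 9.73 and 7.86, and 10.41 and 9.33, and its HuR-IP signals 11.87 and 9.40, 12.34 and 10.56, and 13.16 and 11.19 (DMSO, olaparib, gemcitabine). HuR-IP exceeded the same-numbered IgG-IP array by 0.76 to 2.75. The log2 fold change of SLC25A40 was 2.24 (SE 0.61, limma's adjusted p = 0.0547), which missed the threshold. The adjusted p was 0.000861 with the block and 0.0164 with cyclic loess. SLC25A39, the other glutathione carrier, was dim, at 3.78 to 5.64, and had -0.35 (SE 0.34, limma's adjusted p = 0.596), or 0.10 with arrays centred on brighter genes.

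The mitoferrins import iron for haem and iron-sulphur clusters. SLC25A37 (mitoferrin 1), named after its values were seen, read 7.68 and 6.27, 7.47 and 6.35, and 7.22 and 5.58 on IgG-IP and 12.59 and 7.53, 11.88 and 9.61, and 11.68 and 6.22 on HuR-IP (DMSO, olaparib, gemcitabine). Only with olaparib did its groups separate, and its log2 fold change was 3.16 (SE 1.15, limma's adjusted p = 0.134, and 0.00978 with the block). SLC25A28 (mitoferrin 2) went the other way in all 6 same-numbered comparisons. It read 6.12 and 6.09, 6.12 and 5.82, and 6.14 and 5.50 on IgG-IP and 5.33 and 5.64, 5.74 and 4.21, and 4.13 and 5.42 on HuR-IP, without overlap in any treatment. Its log2 fold change was -0.89 (SE 0.32, limma's adjusted p = 0.133). Levels of different genes were not compared, since each has its own probes.

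ATP-Mg/phosphate carriers set the adenine nucleotide pool of the matrix and are regulated by calcium. SLC25A24 and SLC25A23 were higher in HuR-IP in 6 of 6 same-numbered comparisons. SLC25A24 read 6.42 and 4.87, 6.68 and 5.86, and 6.21 and 4.99 on IgG-IP and 7.67 and 6.39, 8.39 and 6.69, and 7.91 and 6.33 on HuR-IP (DMSO, olaparib, gemcitabine). Its DMSO groups overlapped narrowly and the others did not. The log2 fold change was 1.39 for SLC25A24 (SE 0.49, limma's adjusted p = 0.123, and 0.000900 with the block) and 1.60 for SLC25A23 (SE 0.63, adjusted p = 0.160, and 0.0113 with the block), the latter named after its values were seen. SLC25A25 and SLC25A41 were dim, with mean estimates of -0.52 (SE 0.17, limma's adjusted p = 0.0998) and 0.20 (SE 0.17, adjusted p = 0.533).

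Of the 3 uncoupling protein-like carriers, SLC25A14 was called lower. It was dim, at 4.12 to 5.69 on IgG-IP and 3.45 to 3.94 on HuR-IP, and every HuR-IP value was below every IgG-IP value. Its log2 fold change was -0.98 (SE 0.24, limma's adjusted p = 0.0367), a 1.98-fold lower signal. Of the 12 fits without 1 array it passed only without the DMSO HuR-IP array 2 or the gemcitabine IgG-IP array 2 (adjusted p 0.0107 to 0.103 over the 12), and with each array centred on its brighter genes SLC25A14 had -0.54 (limma's adjusted p = 0.236). Without the 2 intermediate arrays it had -1.02 and lost the call. SLC25A27, known from brain, had -0.63 (SE 0.38, limma's adjusted p = 0.364). The carnitine/acylcarnitine carrier SLC25A20, which brings fatty acids to beta-oxidation, had 0.56 (SE 0.54, limma's adjusted p = 0.592), with signals of 6.68 to 8.66 on IgG-IP and 7.06 to 9.83 on HuR-IP.

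Carriers of the outer membrane or of unassigned substrate were called in 0 of 7 cases, with a median of 0.53. SLC25A53, whose substrate is not settled, was dim and had 0.92 (SE 0.28, limma's adjusted p = 0.0831). It read 3.25 to 3.72 on IgG-IP and 3.37 to 5.07 on HuR-IP, and HuR-IP was higher in 6 of 6 same-numbered comparisons. SLC25A45 had 0.81 (SE 0.34, limma's adjusted p = 0.189).

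Within single treatments the design had less resolution. With DMSO, 0 members were higher and 0 lower, against 0.0209% and 0.478% of all genes (unadjusted p under 0.05: 0 and 2, against 1.79% and 5.77%). With olaparib, 0 were higher and 1 lower, against 0.433% and 3.04% (unadjusted: 4 and 8, against 5.60% and 12.4%). The 1 call was SLC25A11, at -2.57 (SE 0.56, limma's adjusted p = 0.0477), which held in 3 of 12 fits without 1 array, those without either gemcitabine HuR-IP array or without the olaparib HuR-IP array 2 (adjusted p 0.0376 to 0.198 over the 12). With gemcitabine, 0 were higher and 0 lower, against 0.0568% and 0.977% (unadjusted: 3 and 3, against 2.87% and 7.53%). Groups did not overlap, with HuR-IP above or below, for 8 and 11 members with DMSO, 9 and 18 with olaparib, and 9 and 8 with gemcitabine. Of all genes, 12.7% and 23.9%, 20.4% and 30.0%, and 14.6% and 21.5% separated in that way.

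The block changed these counts as well. With it, 0 members were higher and 1 lower with DMSO, 5 and 4 with olaparib, and 2 and 1 with gemcitabine. Of all genes, the block called 0.254% higher and 1.18% lower with DMSO, 3.18% and 6.82% with olaparib, and 0.490% and 2.26% with gemcitabine. The olaparib calls were SLC25A40, SLC25A32, SLC25A24, SLC25A51 and SLC25A52 on the higher side and SLC25A26, SLC25A11, SLC25A10 and SLC25A38 on the lower side. The gemcitabine calls were SLC25A24, SLC25A40 and, lower, SLC25A26, which was also the DMSO call. Without the 2 intermediate arrays the counts, higher and lower, were 2 and 1 with DMSO (1.78% and 1.35% of all genes), 4 and 2 with olaparib (2.87% and 6.11%) and 4 and 1 with gemcitabine (2.22% and 3.31%).

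Whether a drug altered the HuR-IP to IgG-IP difference was tested as a difference of the 2 contrasts. For olaparib minus DMSO, 0 of 44 members were called (0% of all genes), and 0 passed an unadjusted p of 0.05 (1.17% of all genes higher and 1.48% lower). For gemcitabine minus DMSO, 0 were called (0% of all genes) and 1 passed the unadjusted p (0.888% and 0.625% of all genes). These comparisons share the DMSO arrays. Estimates ran from -1.87 for SLC25A38 to 1.98 for SLC25A32 with olaparib, and from -1.22 for SLC25A16 to 1.18 for SLC25A41 with gemcitabine. The median member's 95% interval reached 1.93 to either side of the estimate, and with the block 1.64. With the block, too, 0 members and 0% of all genes were called in either difference, and at an unadjusted p under 0.05 there was 1 lower member for olaparib (1.37% of all genes higher and 2.47% lower) and 1 higher member for gemcitabine (1.02% and 0.93%).

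The intervals of the extreme members were wide. SLC25A32 had 1.98 with olaparib (95% interval -3.84 to 7.80) and 0.24 with gemcitabine (-5.58 to 6.06). SLC25A51 had 1.74 with olaparib (-3.96 to 7.44). SLC25A38 had -1.87 with olaparib (-3.89 to 0.15, or -3.57 to -0.18 with the block, where limma's unadjusted p was 0.0344 and the adjusted p 0.931), and SLC25A43, a carrier of unassigned substrate, -1.68 (-4.24 to 0.87). With gemcitabine SLC25A16, linked to coenzyme A transport, had -1.22 (-3.00 to 0.56), SLC25A20 -0.98 (-3.98 to 2.02) and SLC25A45 0.93 (-0.97 to 2.83).

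The 1 member past the unadjusted p was SLC25A41, a short ATP-Mg/phosphate carrier. It read 4.56 and 4.17 on IgG-IP and 4.19 and 4.0 on HuR-IP with DMSO, and 4.11 and 3.74 against 5.00 and 4.66 with gemcitabine. The gemcitabine groups of SLC25A41 did not overlap, and the difference of the contrasts was 1.18 (95% interval 0.22 to 2.14, limma's unadjusted p = 0.0216, adjusted p = 1.00, and unadjusted p = 0.00618 with the block). When each drug was set against DMSO on HuR-IP arrays or on IgG-IP arrays alone, 0 members and 0% of all genes were called in each of the 4 comparisons, with and without the block. At an unadjusted p under 0.05, 2 members passed with olaparib and 2 with gemcitabine on HuR-IP arrays, by limma, SLC25A38 (-2.03, unadjusted p = 0.0111), SLC25A25 (-0.69, 0.0456), SLC25A22 (-0.93, 0.0119) and SLC25A41 (0.74, 0.0362), and 0 passed on IgG-IP arrays. The shares of all genes passing this p, higher and lower, were 1.78% and 4.06% with olaparib and 1.17% and 1.4% with gemcitabine on HuR-IP arrays, and 0.562% and 0.75% and 1.1% and 1.29% on IgG-IP arrays.

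Genes of 4 related lists, read from the same fit, are given for comparison. In the mean of the 3 treatments 7.51% of all genes were lower and 2.39% higher. Of the protein-coding genes with a mean signal above 6, 18.5% were lower and 7.53% higher. All 16 measured ATP synthase genes had a mean signal above 6, as did 23 of the 44 members. The ATP synthase genes make the ATP that SLC25A4 and SLC25A5 export. Of these, 16 were measured (18 listed) and 16 were lower, with a median log2 fold change of -2.68. With cyclic loess the median was -1.88 and 13 were called lower (4.96% of all genes). With centring the median was -2.23 and 16 were called lower (5.16% of all genes). Examples were ATP5MC1, a c-ring subunit (-3.63, SE 0.19, limma's adjusted p = 4.80e-05), ATP5PO, a stalk subunit (-3.85, SE 0.29, adjusted p = 0.000181), and ATP5F1C, the central shaft (-1.91, SE 0.16, adjusted p = 0.000264). Leaving out 1 array left 11 to 16 of them called.

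The carrier import list holds the TOM receptors and the small TIM chaperones that bring carriers to the inner membrane. Of 15 measured (16 listed), 7 were lower and 0 higher, with a median of -1.24, which became -0.72 with cyclic loess and -0.79 with centring, and with the block 8 were lower and 2 higher. TIMM8B had -3.79 (SE 0.36, limma's adjusted p = 0.000564), TIMM13 -2.64 (SE 0.29, adjusted p = 0.00102) and TIMM10 -2.94 (SE 0.40, adjusted p = 0.00292). Among 18 other mitochondrial membrane transporters (20 listed), 5 were lower and 1 higher, with a median of -0.21 that became 0.13 with cyclic loess and 0.24 with centring, and leaving out 1 array gave 3 to 6 lower. The porin VDAC2 had -2.21 (SE 0.35, limma's adjusted p = 0.00598) and SMDT1, a calcium uniporter subunit, -2.29 (SE 0.40, adjusted p = 0.00964). LETM1, a cation/proton exchanger, had 2.85 (SE 0.47, limma's adjusted p = 0.00730).

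Relatives with the carrier fold but another symbol were called in 0 of 5 cases (1 lower with the block, 0 to 2 without 1 array), with a median of -1.07 that became -0.26 with cyclic loess, -0.62 with centring and -0.28 without the 2 intermediate arrays. MTCH1, an outer-membrane protein, had -2.06 (SE 0.65, limma's adjusted p = 0.0877), the uncoupling protein UCP2 -1.34 (SE 0.42, adjusted p = 0.0879) and MTCH2, an outer-membrane insertase, -1.07 (SE 0.54, adjusted p = 0.276). The SLC25A members had an SD of log2 fold changes of 1.44, against 0.91 over all genes and 1.63 over the protein-coding genes with a mean signal above 6. For the 23 members of that brightness it was 1.94, with a median of 0.16 against -0.57 over those protein-coding genes.

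**Figure D4:**
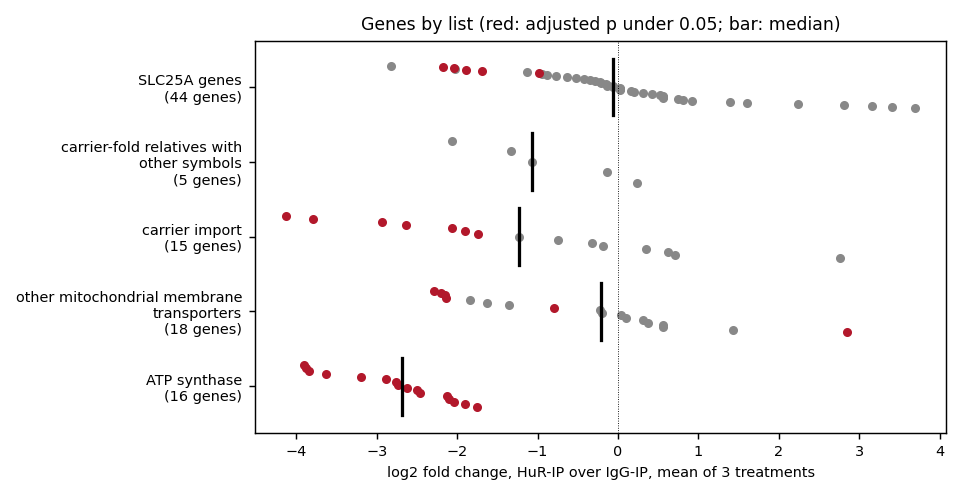
Log2 fold change of HuR-IP over IgG-IP averaged over the 3 treatments (x axis) for the SLC25A genes and 4 related lists; each point is a gene, red where the adjusted p was under 0.05, and the bar is the list's median. All 16 ATP synthase genes lie between -3.91 and -1.75, whereas SLC25A genes reach from -2.82 to 3.69 around a median of -0.06.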

How the data were processed

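RNA recovered with HuR antibody or IgG was measured on 12 Clariom D arrays. The authors deposited log2 signals, made with RMA in Affymetrix Expression Console 1.4 according to the submitters' processing notes. The summarization settings and genome build are not given in the sources used here, so no coordinates are printed, and no detection p-values were used. Equal amounts of RNA were labelled for each array.

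Of 138745 features, 2995 were controls. Of the 135750 transcript clusters, 36176 named 1 gene symbol, 1119 several and 98455 none. Symbols were updated through RefSeq (assembly GRCh38.p14), by gene ID for 25516 clusters, by symbol for 9899 and by older symbol for 623, and 138 were kept as given. The brightest cluster stood for each of 33458 genes, of which 17622 were protein-coding.

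Signals were fitted with limma 3.58.1 in R 4.3.3, with 1 mean for each of the 6 groups and without a block, with Benjamini-Hochberg adjustment of p-values over the 33458 genes. The fit had 6 residual and 2.42 prior degrees of freedom, and precision is limited by how many arrays there were. Intervals are 95% intervals of that fit. In a test on simulated data with 33458 genes, the mean of the 3 treatments recovered 7, 18, 30 and 31 of 50 genes changed by 1, 2, 3 and 4 log2 units, with 4 false calls, and the olaparib comparison recovered 0, 1, 7 and 5 with 0 false calls. The simulated noise was independent between arrays, changed genes all had a mean signal above 6, and no other gene differed between antibodies. The real arrays share deviations and many members are dimmer, so these counts need not hold for them.

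Same-numbered arrays deviated from their group means together in each of the 15 pairs of groups (r from 0.15 to 0.81), so the numbers were taken to pair the arrays and the blocked values are given where they change a call. This pairing rests on the numbers in the labels and on these values, since the labels do not say which arrays were made together.

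Genes named with values were the ADP/ATP carriers, called members with the 6 lowest and 6 highest fold changes, 2 members per role with the largest moderated statistic, and the 2 highest and 2 lowest members in each drug difference. SLC25A12, SLC25A22, SLC25A39 and SLC25A44 were named outside this rule, after their values were seen. Other members outside the rule are identified as such or given by range. The members and the lists (roles, ATP synthase, carrier import, other transporters, relatives, markers) were chosen with earlier results of these data known. Alternatives were cyclic loess, centring of each array on genes with a mean signal above 6, testing those genes alone, a trended and robust prior, the replicate block, only the arrays compared, the mean over clusters, and leaving out each array.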

Additional observations from a re-analysis of the deposited data

How the results depend on the processing

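For the mean of the 3 treatments, the count of higher members (0) became 8 with cyclic loess, 9 with arrays centred on brighter genes, 5 with only genes above a mean signal of 6, 5 with a trended and robust prior, 7 with the replicate block, and 9 without the 2 intermediate arrays, an alternative chosen after seeing the data. Leaving out 1 array gave 0 to 6 higher and 1 to 8 lower members. The replicate block gave 8 lower members where 5 were called without it. With DMSO the block gave 1 lower member, and leaving out the 2 intermediate arrays 2 higher and 1 lower. With olaparib the block gave 5 higher and 4 lower, the fit of the compared arrays alone 3 and 2, and leaving out the 2 intermediate arrays 4 and 2, while cyclic loess, centring and the trended prior each gave 0 lower and leaving out 1 array 0 to 1. With gemcitabine the block gave 2 higher and 1 lower, and leaving out the 2 intermediate arrays 4 and 1. Shares of all genes are not given for the fit of the compared arrays alone or for the fits without 1 array. The counts of members in those fits are therefore not read as a result about the family. SLC25A31 changed sign with centring (0.38) and over the fits without 1 array (lowest -0.22, highest 0.0887). In these cases the cause was not tested, and the block kept the 5 lower members called without it. Scaling moved the median of all genes in that mean from -0.07 to 0.01 with cyclic loess and 0.38 with centring, and all genes split into 800 higher and 2512 lower calls as deposited, 1828 and 1660 with cyclic loess, and 2290 and 1726 with centring. Of all values under an alternative, 338 counts of members were equal or close to the count of the main fit, whereas 40 counts moved. These counts include the drug differences and the drug comparisons on 1 antibody, where the main fit called 0 members and 0% of all genes. Such counts had little room to move, so 338 against 40 does not measure how stable the HuR-IP against IgG-IP calls were. Of the single-gene estimates 62 gained and 34 lost the call and 4 changed sign, and 10 medians of the members moved. The other 397 were gene estimates that kept call and direction, or medians that stayed close to the main fit.

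With 2 arrays a group the 95% interval of a drug difference reached 1.93 log2 units to either side for the median member (1.64 with the block), and a missed threshold does not show equal values. Dim members lie near the background probes, where fold changes are compressed. The IP RNA shares of 1 cell line were compared, in 1 experiment without an input fraction analysed here. Near-identical copies can share probes.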

Other observations

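Clusters were also present for 40 SLC25A pseudogenes and 4 long noncoding RNAs with an SLC25A symbol. Of the pseudogenes 5 were lower and 0 higher in HuR-IP (7.51% and 2.39% of all genes), namely SLC25A5P3 (-1.45, SE 0.28, limma's adjusted p = 0.0154), SLC25A5P2 (-1.37, adjusted p = 0.0355), SLC25A5P8 (-1.22, adjusted p = 0.0166), SLC25A6P2 (-1.07, adjusted p = 0.0369) and SLC25A5P7 (-0.81, adjusted p = 0.0356). SLC25A5P5 had the lowest estimate, -1.93 (SE 0.51, limma's adjusted p = 0.0513), and HuR-IP was lower in 6 of 6 same-numbered comparisons. Pseudogenes can share probes with SLC25A5 and SLC25A6, so these values are not independent of theirs. The 4 noncoding RNAs had 0 calls, with estimates of -0.47 to 0.81.

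Among IgG-IP arrays, those numbered 1 read above those numbered 2 in 3 of 3 treatments for 26 of 44 members (59.1%), against 39.7% of protein-coding genes, and for 19 of the 23 members with a mean signal above 6 (82.6%), against 65.7% of protein-coding genes of that brightness. The median difference was 0.44 over all members and 1.14 over the brighter ones. On HuR-IP arrays the same held for 16 members (36.4%, against 21.8% of protein-coding genes), with a median of 0.19. The array numbered 1 read lower in 3 of 3 treatments for 7 members on HuR-IP (15.9%, against 19.0% of protein-coding genes). On IgG-IP it read lower for 2 members (4.55%, against 16.4%).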
